A study of Mus musculus with 10 samples.

Results

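The genes described here encode the machinery of protein synthesis: translation initiation, elongation and release factors, cytoplasmic poly(A)-binding proteins and aminoacyl-tRNA synthetases. The rule that chose them goes by name and uses no measured value, but it was set with earlier results of these data known. It takes the features with a single gene symbol that begins with Eif or Eef and a digit, is Etf1, or begins with Gspt or Pabpc. Aminoacyl-tRNA synthetase genes were taken where the symbol is 1 or 2 letters followed by ars, with or without a final 1 or 2. The rule left out the kinase gene Eif2ak2. Its pattern also missed the synthetase genes Eprs and Farsb, whose values are given with the cytosolic synthetases. It took 49 of the 9596 features, which stand for 48 of the 6795 named genes, since Nars2 had 2 features that were averaged. All 48 genes had a value on every array, and no filter on low values was applied. The 2 Nars2 features lay on opposite sides of 0 on 3 arrays, for example at log2 ratios of 0.21 and -0.57 on PEC1.

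RNA of mouse macrophages was measured on 10 spotted cDNA arrays, each of which held 2 conditions in its channels. One source was peritoneal exudate cells (PEC) that adhered in culture, which the labels call peritoneal macrophages. The other was tumour-associated macrophages (TAM) collected 3 weeks after tumour implantation. All came from mice labelled C57/6N black and aged 8 weeks, with no genetic change named, and the tumour is not named in the labels used here. Each kind of cell was cultured untreated or with 100 ng/mL lipopolysaccharide (LPS), the bacterial outer-membrane component that activates macrophages, for 4 hours. Untreated TAM were compared with untreated PEC on 4 arrays (TAM-2R, TAM-3, TAM-8 and TAM-b). LPS-treated and untreated PEC shared 2 arrays (PEC1 and PEC2), LPS-treated and untreated TAM shared another 2 (TAM-trial and TAM-16), and LPS-treated TAM met LPS-treated PEC on the last 2 (TAM1 and TAM7). The labels do not tie the arrays of a group to separate animals or cultures, so a p-value here reflects the spread between arrays, and that spread may be technical.

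Every value below is a log2 ratio between conditions, not a level, so no gene can be said to be more abundant than another. The sources used here do not give the dyes, and each direction is therefore likely and not certain. Its basis is a list of 28 measured LPS-induced genes, 25 of which lay above 0 on PEC1 and 27 on PEC2 when channel 2 was read over channel 1; TAM-2R and TAM1, with exchanged channels, were turned. The array TAM-trial stood apart for these genes: the scaled median absolute deviation of the 48 log2 ratios was 1.76 there, against 0.44 on TAM-16, the other array of the same comparison. Features that share a place within successive blocks of 96 took 4.39% to 49.1% of an array's variance, where 0.99% would be taken with no such pattern, and TAM-b had the highest share. A ratio cannot show that a cell type's markers are present; the 7 measured macrophage markers had a median log2 ratio of -0.86 in untreated TAM over PEC and the 7 neutrophil markers one of 1.01. The 5 other cell type lists and the proliferation genes had medians there from -0.45 (B cells) to 0.46 (fibroblasts). Because the RNA is bulk RNA, fewer cells of a type and less RNA per cell cannot be told apart.

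Translation starts when the factor eIF2 brings the initiator tRNA to the small ribosomal subunit, while eIF4E, eIF4A and eIF4G recruit the capped mRNA and eIF3 joins the 2 assemblies. Elongation factors then deliver charged tRNAs and move the ribosome, release factors free the finished protein, and synthetases charge each tRNA with its amino acid. In macrophages the response to LPS is controlled at this step as well as in transcription, through the mTOR pathway, which acts on the eIF4E-binding proteins, and through the kinases that phosphorylate eIF2.

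None of the 48 genes passed an adjusted p of 0.05 in any comparison, by limma with Benjamini-Hochberg adjustment over 8905 genes and unnamed features. After LPS, 32 of the 48 (66.7%) lay above 0 in PEC, where 48.1% of all genes and features did, and 15 (31.2%) lay above 0 in TAM, where 43.2% did. The count in PEC was 26 with a dye term in the fit (47.6% of all genes) and 23 in a fit over the loop of 4 conditions (47.2%). Their median log2 ratio was 0.29 in PEC, beside -0.04 for all genes and features tested, and -0.45 in TAM, beside -0.13. In untreated TAM over PEC the median was -0.27, beside -0.02, and in LPS-treated TAM over LPS-treated PEC it was -0.12, beside 0.08. The gene with the highest mean in PEC was Eef1g, a subunit of the complex that reloads eEF1A, and the lowest in TAM was Tars, the threonyl-tRNA synthetase.

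**Figure D1:**
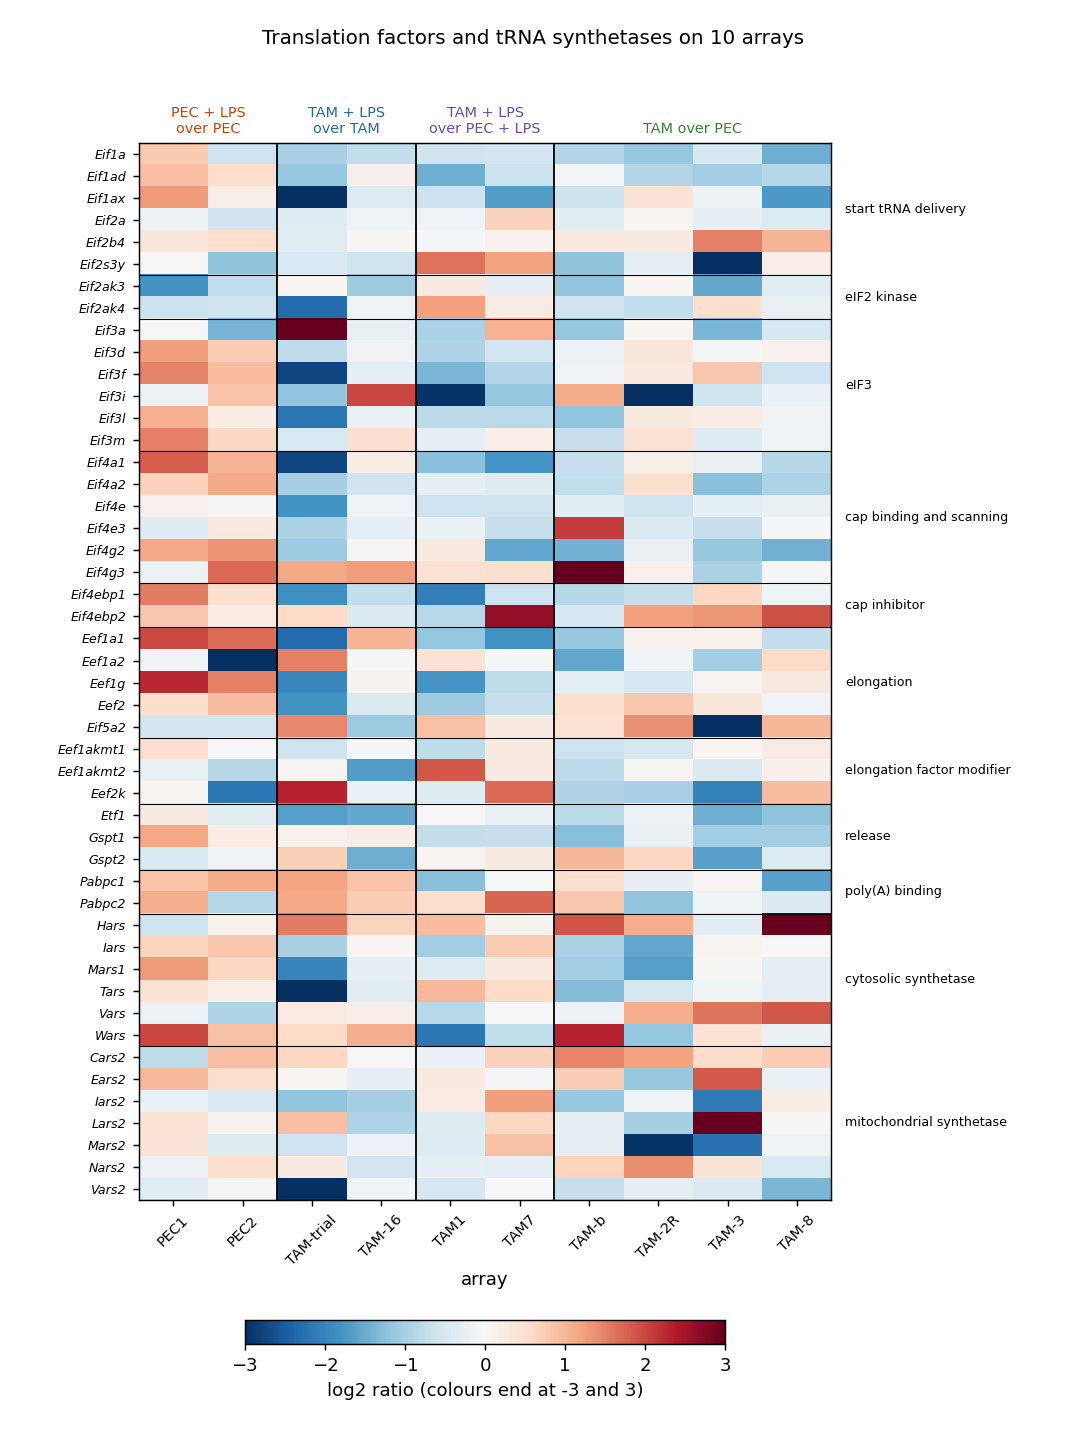
Log2 ratio of each of the 48 genes (vertical axis, grouped by role) on each of the 10 arrays (horizontal axis, grouped by comparison), with colours that end at -3 and 3. The eIF3, cap-binding and elongation genes are mostly above 0 on PEC1 and PEC2, and TAM-trial holds many more extreme values than TAM-16.

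The medians on single arrays give the spread behind those means. The median of the 48 genes was 0.42 on PEC1 and 0.22 on PEC2, against -0.62 on TAM-trial and -0.16 on TAM-16. It was -0.37 on TAM1 and -0.02 on TAM7, and it ranged from -0.53 on TAM-b to -0.15 on TAM-2R among the arrays of untreated cells. The PEC arrays thus lay on the other side of 0 from both TAM arrays, although the median on TAM-16 was not below that of all genes there, -0.20. Across the 48 genes the values of PEC1 and PEC2 had a Spearman correlation of 0.52, and 0.37 across all 9596 features. The same measure was 0.48 for TAM1 and TAM7 (0.33 across all features), 0.08 for TAM-trial and TAM-16 (0.13), and between 0.06 and 0.29 for pairs of the untreated arrays. These correlations describe genes that share an array and are not independent replicates.

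**Figure D2:**
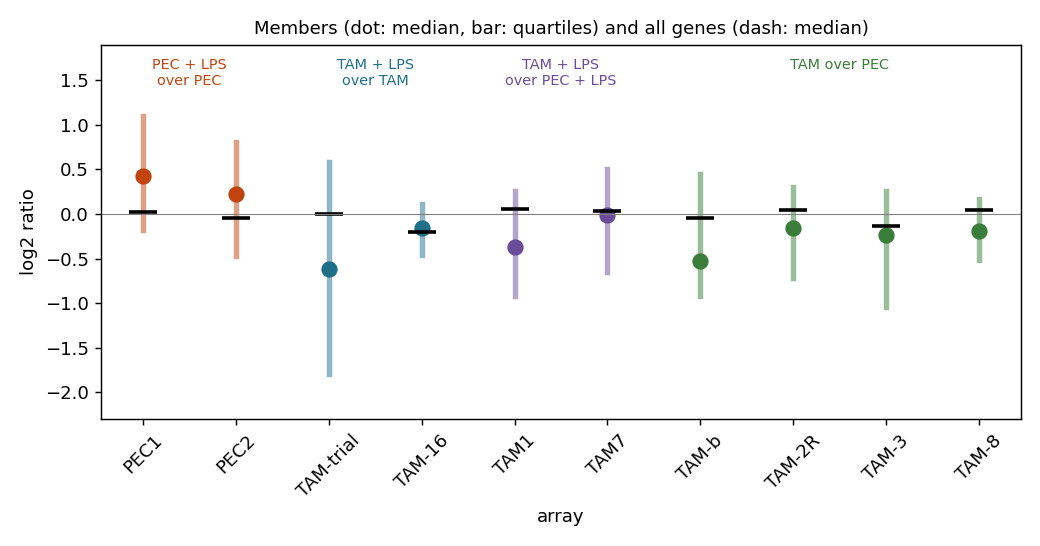
Median (dot) and quartiles (bar) of the log2 ratios of the 48 genes on each array, with the median of all genes and unnamed features as a black dash; the vertical axis is the log2 ratio and the arrays are grouped by comparison. The dots of PEC1 and PEC2, at 0.42 and 0.22, are above 0, and those of the other 8 arrays are below 0.

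**Figure D3:**
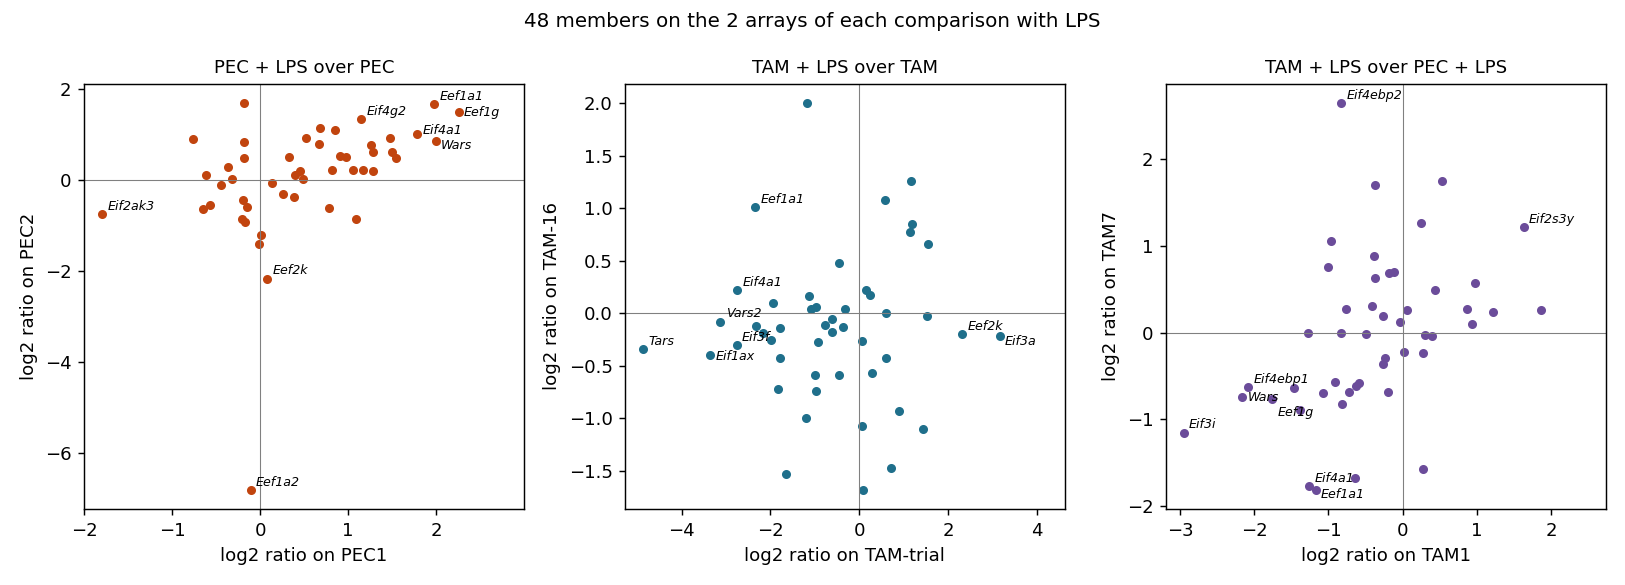
Log2 ratios of the 48 genes on 1 array (horizontal axis) against those on the other array (vertical axis) of each comparison with LPS, 1 point per gene. The points of PEC1 and PEC2 spread along a rising line, while those of TAM-trial span from -4.87 to 3.16 with little order on TAM-16.

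Promoter sequences of 6 of these genes are shown because they share short motifs and because the mean log2 ratios of the genes with LPS lay above 0 in PEC and below 0 in TAM, for Eif4e by only 0.04 in PEC. They were picked after their values had been seen, and single arrays did not always keep that order: Eif4e was at -0.06 on PEC2, and Eif4a1 and Iars were at 0.22 and 0.06 on TAM-16. The windows are RefSeq promoters on GRCm38.p6, from 250 bases before to 50 after the annotated start, and 34 of the 48 genes were matched. The palindrome CACGTG, the E-box bound by MYC-family and related factors, was in the windows of 10 of those 34 genes (29.4%), against 7.15% of all 32851 windows and 11.3% of the 5365 genes on the array that had one. The letters TTGCATCA, searched on both strands and part of the C/EBP-ATF response element through which ATF4 acts on amino-acid genes, were in 2 of 34 (5.88%), against 0.895% of all windows. The 2 motifs do not overlap and were picked after the sequences had been seen, so these shares have no test. Capitals mark the motifs, and each stretch runs 5′ to 3′ on the strand of its gene. The stretches are chr13:49682055-49682154 (+) for Iars, chr15:11399629-11399698 (-) for Tars, chr3:138527178-138527237 (+) for Eif4e, chr11:69672579-69672638 (-) for Eif4a1, chr7:108934325-108934384 (+) for Eif3f and chr10:81176561-81176620 (+) for Eef2. The Eif4e window belongs to a start that lies 1077 bases downstream of the gene's first annotated base.
Iars: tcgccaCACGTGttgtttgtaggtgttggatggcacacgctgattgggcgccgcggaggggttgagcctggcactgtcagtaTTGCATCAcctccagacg
Tars: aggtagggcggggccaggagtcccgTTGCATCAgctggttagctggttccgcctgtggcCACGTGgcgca
Eif4e: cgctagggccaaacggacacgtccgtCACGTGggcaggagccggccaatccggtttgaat
Eif4a1: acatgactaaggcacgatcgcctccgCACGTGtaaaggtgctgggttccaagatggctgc
Eif3f: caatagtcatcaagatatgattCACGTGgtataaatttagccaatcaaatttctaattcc
Eef2: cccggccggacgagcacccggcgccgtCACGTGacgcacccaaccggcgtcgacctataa
In Iars and Tars, which charge tRNAs with isoleucine and threonine, both motifs stood near the start, with TTGCATCA at base 8 after the start of Iars and at base -15 before that of Tars. CACGTG was at base -69 before the start of Iars and at base 20 after that of Tars. The other 4 genes with CACGTG were not printed. Ears2 had means of 0.75 in PEC and -0.10 in TAM, while Eef2k (-1.05 and 1.06), Eif3a (-0.70 and 1.47) and Eif5a2 (-0.56 and 0.17) had the reverse signs. The means were thus above 0 in PEC and below 0 in TAM for 7 of the 10 genes with CACGTG and for 11 of the 24 without it, and the reverse for 3 and 1. Over the 48 genes these counts were 23 and 6, and over all 8905 genes and features 2301 and 1873. Means on opposite sides were held by 100% of the 10, 50% of the 24, 60.4% of the 48 and 46.9% of all. The 7 include the 6 printed genes, which were picked for that order, so the counts have no test. Over the 10 genes with CACGTG the median log2 ratio was 0.52 for LPS in PEC and -0.71 for LPS in TAM, and over the 24 without it 0.34 and -0.46. A match is only a match of letters, and binding was not measured here.

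The LPS response of PEC is the first comparison. The genes with the highest means in PEC after LPS were Eef1g, Eef1a1, Wars, Eif4a1, Eif4g2 and Eif3f, at log2 ratios from 1.20 to 1.89, and the lowest were Eef1a2 and Eif2ak3. Of the 48 genes, 24 (50%) lay above 0 on both PEC arrays, where 31.4% of all genes and features did, and 10 lay below 0 on both, where 32.5% did. None passed the adjusted threshold, which 0.0112% of all genes passed, and the lowest adjusted p among the 48 was 0.413. At an unadjusted p under 0.05 in limma there were 5 above 0 (Eef1a1, Eef1g, Eif3d, Eif3m and Eif4g2), or 10.4%, against 5.73% of all genes, and 2 below 0 (Eef1a2 and Eif2ak3), or 4.17%, against 2.41%. Both PEC arrays had the same channel order; with a dye term in the fit the median of the 48 was 0.08, and in a fit over the loop of 4 conditions with a dye term it was -0.12, so the side of 0 depends on how dye effects are treated. The 5 genes above 0 became 0 without PEC1 and 1 without PEC2 (against 1.74% and 3.36% of all genes), and 3 without TAM-8 (5.41%). The ribosomal protein genes, 26 of them measured, had medians of 2.22 on PEC1 and 1.30 on PEC2. The macrophage markers had a median of 0.77, 6 of 7 above 0, with array medians of 0.83 and 1.22; the part of either list in the result was not tested.

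In TAM, the response to LPS gave its lowest means for Tars, Eif1ax, Vars2, Etf1 and Eif3f, from -2.60 to -1.53, and its highest for Eif3a, Eif4g3, Hars, Eef2k and Pabpc1, from 1.02 to 1.47. Both TAM arrays were below 0 for 20 genes (41.7%), where 33.7% of all genes were, and above 0 for 8 (16.7%), where 22.4% were. None passed the adjusted threshold, as did 0% of all genes, and the lowest adjusted p was 0.827. Unadjusted p under 0.05 in limma was reached by 7 genes below 0 (14.6%, against 4.68% of all genes), namely Eef2, Eif1ax, Eif3f, Eif4ebp1, Etf1, Tars and Vars2. No gene reached it above 0, against 0.898% of all. Both TAM arrays had the same channel order. With a dye term in the fit, 4 genes were below 0 at that p (against 3.04% of all genes), and the median of the 48 was -0.46. In the loop fit with a dye term there was 1 such gene (1.43%), with a median of -0.30. The count of 7 became 2 without TAM-trial and 14 without TAM-16 (against 1.62% and 6.93% of all genes). On TAM-16 alone the median of the 48 was -0.16, beside -0.20 for all genes. The ribosomal protein genes had a median of -1.76 on TAM-trial and of 0.15 on TAM-16, and the 7 macrophage markers one of -0.88 over both, with array medians of -1.88 and 0.40; their part in these values was not tested.

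The difference between both responses, TAM minus PEC, had a median of -0.59 over the 48 genes, beside -0.11 over all genes. It was taken from the means of PEC1, PEC2, TAM-trial and TAM-16 only. LPS-treated TAM over LPS-treated PEC minus untreated TAM over PEC is a second route to it, and those medians were -0.12 and -0.27. The first of these was the higher, so these medians did not have the order that a difference below 0 needs. The fit over the loop of 4 conditions, which uses both routes, gave a median difference of -0.34, beside -0.02 over all genes. For 24 genes (50%) both TAM arrays lay below both PEC arrays, as for 27.4% of all genes, and for 3 genes, Eef1a2, Hars and Vars, both lay above, as for 14.1%. None passed the adjusted threshold, with a lowest adjusted p of 0.719, nor did any other gene (0%). At an unadjusted p under 0.05 in limma 14 genes lay below 0 (29.2%, against 5.97% of all genes): Eef1a1, Eef1g, Eef2, Eif1ax, Eif3d, Eif3f, Eif3l, Eif4a1, Eif4a2, Eif4ebp1, Eif4g2, Etf1, Mars1 and Tars. Above 0 there was 1, Eef1a2 (2.08%, against 0.898%). This count rested on single arrays: without TAM-trial 1 gene was left below 0 (against 1.43% of all genes), without PEC1 3 (1.66%), without PEC2 8 (3.87%) and without TAM-16 15 (8.2%). The median of the 48 was -0.57 without TAM-trial, beside -0.28 for all genes. In the loop fit 8 genes lay below 0 at an unadjusted p under 0.05 in limma, against 8.43% of all genes. By the second route Eif4a2, Eif4g2, Etf1, Mars1 and Tars, of the 14 genes named, lay above 0 and the others below. Tars, for example, had means of 0.77 in LPS-treated TAM over LPS-treated PEC and -0.56 in untreated TAM over PEC. The macrophage markers, all 7 of them below 0, had a median difference of -1.71, and their part in it was not tested.

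**Figure D4:**
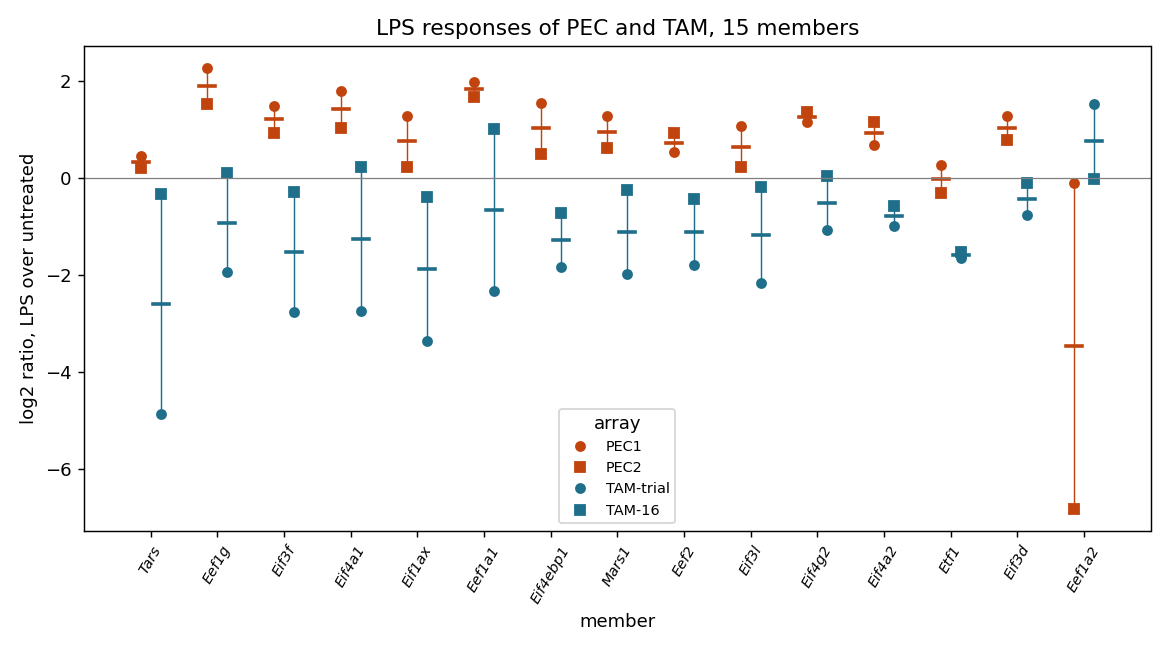
Log2 ratio of LPS-treated over untreated cells (vertical axis) for the 15 genes with an unadjusted p under 0.05 in the difference between TAM and PEC. The genes are ordered by that difference, from the lowest to the highest, with PEC arrays in orange, TAM arrays in blue and each mean as a dash. For 14 genes the TAM mean lies below the PEC mean and TAM-trial (blue circles) below TAM-16, whose own distance from the PEC mean runs from -1.79 (Eef1g) to -0.66 (Tars), and Eef1a2 differs through PEC2 at -6.82.

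LPS-treated TAM over LPS-treated PEC was measured on arrays of its own. The lowest means were those of Eif3i, Eif4a1, Eef1a1, Wars and Eif4ebp1, from -2.05 to -1.35, and the highest with the same sign on both arrays were those of Eif2s3y, Pabpc2 and Eef1akmt2, at 1.42, 1.13 and 1.06. Both arrays were below 0 for 21 genes (43.8%, against 28.2% of all genes) and above 0 for 10 (20.8%, against 32.9%). These shares rest on turning TAM1, which had exchanged channels. Once it was turned, 2 of the 28 LPS-induced genes lay above 0 on TAM1 and 2 on TAM7, with medians of -1.82 and -1.73. With TAM1 left unturned, both arrays were below 0 for 5 genes (10.4%, against 20.3%) and above 0 for 12 (25%, against 18.5%). The means above 0 then numbered 31 in place of 21, with a median of 0.14, and the lowest were Eif4g2 and Eef1akmt2, at -0.93 and -0.80, while Eif3i was at 0.90. None passed the adjusted threshold, which 0.0674% of all genes passed, and the lowest adjusted p was 0.496, for Eif4ebp1. An unadjusted p under 0.05 in limma was reached by 4 genes below 0 (8.33%, against 6.92%), Eef1g, Eif1ad, Eif4a1 and Eif4ebp1, and by none above 0 (against 2.08%). The fit with TAM1 unturned left TAM-2R unturned as well. The count of 4 was 0 with TAM1 unturned (against 0.202% of all genes), 1 without TAM1 (2.35%) and 1 without TAM7 (4.96%). It was 2 without PEC1 or PEC2 (5.97%), 2 without TAM-8 (6.57%) and 7 without TAM-trial or without TAM-16 (7.13% in either). The macrophage markers had a median of -1.72 here, 1 of 7 above 0, and the ribosomal protein genes medians of -1.26 on TAM1 and -0.93 on TAM7; their part in these values was not tested.

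Untreated TAM over untreated PEC was the comparison with the most arrays, 4. The highest means were those of Hars, Vars, Cars2 and Eif4ebp2, from 1.0 to 1.86, and the lowest those of Eif2s3y, Mars2, Eif4g2 and Eif1a, from -1.48 to -0.99. On all 4 arrays 2 genes, Cars2 and Eif2b4, were above 0 (4.17%, against 8.77% of all genes) and 9 were below 0 (18.8%, against 10.8%): Eif1a, Eif1ad, Eif4e, Eif4g2, Etf1, Gspt1, Mars2, Tars and Vars2. None passed the adjusted threshold, which 0.46% of all genes passed, and the lowest adjusted p was 0.232, for Eif1a. With an unadjusted p under 0.05 in limma 4 genes were above 0 (8.33%, against 6.57%), Cars2, Eif2b4, Hars and Vars, and 5 below 0 (10.4%, against 7.74%), Eif1a, Eif4g2, Etf1, Gspt1 and Mars2. Both shares were near the background, and the 4 above 0 became 1 without TAM-8 (against 5.09% of all genes) and 2 without TAM-3 (10.3%). With TAM-2R and TAM1 both unturned 1 gene was above 0 (5.13%) and 3 were below (3.22%). TAM-b alone gave Eif4g3 4.02, TAM-3 alone gave Lars2 4.28 and TAM-8 alone gave Hars 4.81, each far from the other 3 arrays.

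**Figure D5:**
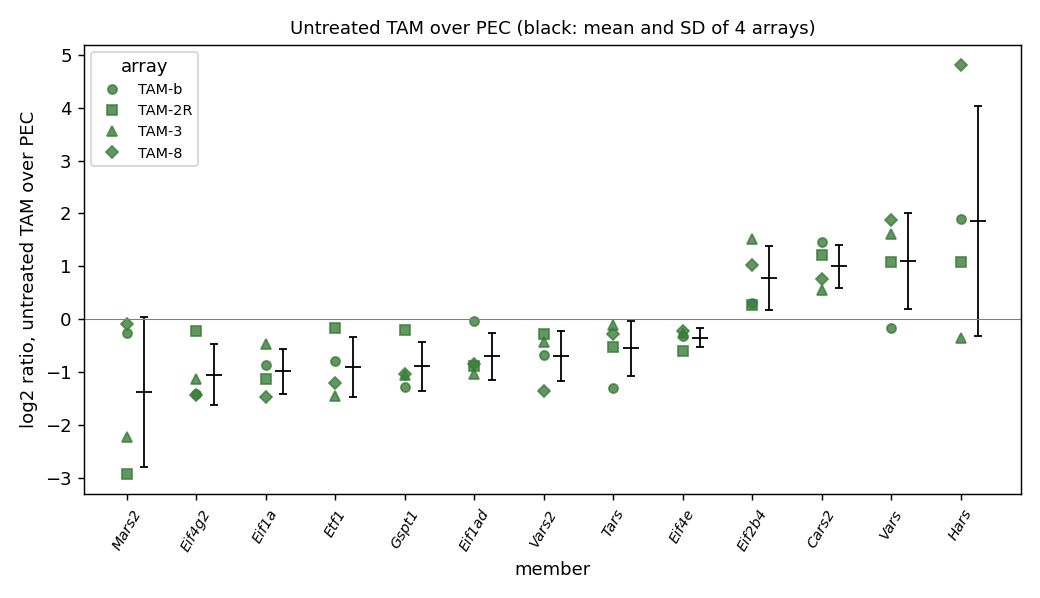
Log2 ratio of untreated TAM over untreated PEC (vertical axis) on 4 arrays for the 13 genes with the same sign on every array or an unadjusted p under 0.05, with the mean and SD of the arrays in black. Cars2 and Eif2b4 are above 0 on all 4 arrays, 9 genes are below 0 on all 4, and Hars owes its mean of 1.86 largely to TAM-8 at 4.81.

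Under delivery of the initiator tRNA 6 genes were grouped. Eif1a and Eif1ax encode eIF1A. Eif1ad, with a domain like that of eIF1A, was placed here by its name, and a role of it in delivery was not tested. Eif2a is an initiator tRNA carrier apart from eIF2. Eif2b4 is a subunit of the exchange factor that recharges eIF2, and Eif2s3y the Y-linked gene for an eIF2 subunit. The median of the 6 was 0.26 for LPS in PEC and -0.51 for LPS in TAM, where all 6 lay below 0 in the mean. Eif1ax was at 1.28 on PEC1 and 0.21 on PEC2, against -3.36 on TAM-trial and -0.40 on TAM-16. Both PEC values were above both TAM values, but the TAM mean of -1.88 ± 2.09 (SD, n = 2) came mostly from TAM-trial. Eif1a lay below 0 on 9 of the 10 arrays, at -0.87, -1.14, -0.47 and -1.47 on the arrays TAM-b, TAM-2R, TAM-3 and then TAM-8, with a mean of -0.99 ± 0.42 (SD, n = 4; adjusted p = 0.232). After LPS Eif1a was at -0.97 and -0.74 in TAM and at 0.78 and -0.61 in PEC, where the arrays differed in sign. Eif2b4 was above 0 on all 4 untreated arrays, at 0.31, 0.27, 1.52 and 1.02 in the same order (mean 0.78 ± 0.60, adjusted p = 0.296). It was within 0.32 of 0 on the TAM arrays with LPS. Eif2s3y ranged in untreated TAM from -4.64 on TAM-3 to 0.19 on TAM-8, and was at 1.63 and 1.21 on TAM1 and TAM7, so its sign turned between comparisons. Eif1ad was below 0 on all 4 untreated arrays (-1.04 to -0.04) and on TAM1 and TAM7, at -1.47 and -0.64. Eif2a stayed between -0.60 and 0.70 on every array.

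The eIF2 kinases were represented by Eif2ak3 (PERK, which senses unfolded proteins) and Eif2ak4 (GCN2, which senses uncharged tRNA). Eif2ak3 was at -1.80 on PEC1 and -0.74 on PEC2, a mean of -1.27 ± 0.75 (SD, n = 2; adjusted p = 0.544). It was the gene second from the bottom for LPS in PEC and lay below 0 on both arrays. Its untreated TAM values were -1.18, 0.05, -1.54 and -0.34, and on TAM-trial and TAM-16 it was at 0.07 and -1.07. Eif2ak4 was at -0.65 and -0.63 on the PEC arrays, and at -2.32 and -0.12 on the TAM arrays with LPS. Neither kinase had a single sign across the untreated arrays.

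The eIF3 complex, the scaffold between the small subunit and the mRNA, was represented by 6 subunits with a median of 0.83 for LPS in PEC, -0.21 for LPS in TAM (3 of 6 above 0) and -0.78 in LPS-treated TAM over LPS-treated PEC. Eif3d, Eif3f, Eif3l and Eif3m were above 0 on both PEC arrays. Eif3f was at 1.48 on PEC1 and 0.93 on PEC2, and at -2.76 on TAM-trial and -0.30 on TAM-16. It was also at -1.38 on TAM1 and -0.89 on TAM7, so every array with LPS-treated TAM put it below 0. The difference between the responses of TAM and PEC was -2.73 with a standard error of 0.83 (adjusted p = 0.719), and it was -1.5 without TAM-trial. Eif3d, a cap-binding subunit, was at 1.26 and 0.77 in PEC and at -0.77 and -0.11 in TAM after LPS. Its PEC mean of 1.02 ± 0.35 (SD, n = 2) had an adjusted p of 0.5. Eif3l followed the same order, at 1.06 and 0.22 in PEC and at -2.17 and -0.19 in TAM. Eif3m was at 1.5 and 0.62 in PEC, but at -0.45 and 0.48 in TAM. The largest subunit, Eif3a, went the other way, at -0.01 and -1.40 in PEC and at 3.16 and -0.22 in TAM, with arrays that hardly resemble each other. Eif3i spread from -3.10 on TAM-2R to 2.0 on TAM-16 and was at -2.95 and -1.15 on TAM1 and TAM7, the lowest mean of that comparison (-2.05 ± 1.27, adjusted p = 0.609).

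Cap binding and scanning had 6 genes: the helicases Eif4a1 and Eif4a2, the cap-binding Eif4e and Eif4e3, the scaffold Eif4g3, and Eif4g2, a scaffold relative that lacks the site for eIF4E. Their median was 0.84 for LPS in PEC, -0.70 for LPS in TAM and -1.35 for the difference. Eif4a1, whose promoter stretch is printed above, was at 1.79 on PEC1 and 1.02 on PEC2. In TAM it was at -2.75 on TAM-trial but at 0.22 on TAM-16, so the TAM arrays disagreed in sign. On TAM1 and TAM7 it was at -1.26 and -1.77, a mean of -1.52 ± 0.36 (SD, n = 2), or 2.86-fold lower in LPS-treated TAM (adjusted p = 0.509). Eif4a2 was at 0.68 and 1.14 in PEC and at -0.99 and -0.59 in TAM, with both TAM arrays on the same side. Eif4g2 was at 1.15 and 1.35 in PEC, values close to each other, with a mean of 1.25 ± 0.14 (SD, n = 2; adjusted p = 0.588). In untreated TAM it was below 0 on every array, at -1.42, -0.22, -1.13 and -1.44 (mean -1.05 ± 0.57, adjusted p = 0.271). Eif4e itself was near 0 in PEC, at 0.13 and -0.06. It was below 0 on the other 8 arrays, from -1.79 on TAM-trial to -0.14 on TAM-16, and in untreated TAM at -0.35 ± 0.18 (SD, n = 4; adjusted p = 0.611). Eif4g3 was at 1.17 and 1.26 on the TAM arrays with LPS, and Eif4e3 at -0.94 and -0.27.

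Eif4ebp1 and Eif4ebp2 encode eIF4E-binding proteins, which hold eIF4E until mTOR phosphorylates them. Eif4ebp1 was at 1.54 and 0.49 on the PEC arrays with LPS and at -1.84 and -0.72 on the TAM arrays with LPS. It was at -2.08 on TAM1 and -0.63 on TAM7, so all 4 arrays with LPS-treated TAM were below 0. The difference between TAM and PEC was -2.29 with a standard error of 0.78 (adjusted p = 0.719). Untreated TAM gave -0.85, -0.70, 0.62 and -0.12, with no common sign. Eif4ebp2 had other values: 0.82 and 0.22 in PEC, 0.60 and -0.43 in TAM, and -0.83 on TAM1 against 2.64 on TAM7.

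Elongation factors included the highest and the lowest means for LPS in PEC. Eef1g was at 2.26 on PEC1 and 1.51 on PEC2, a mean of 1.89 ± 0.53 (SD, n = 2), or 3.70-fold (adjusted p = 0.413). It was at -1.95 and 0.10 on the TAM arrays with LPS and at -1.76 and -0.77 on TAM1 and TAM7. The untreated values, -0.28, -0.47, 0.08 and 0.28, were near 0. Eef1a1, the main carrier of charged tRNA, was at 1.98 and 1.67 in PEC, and at -2.34 and 1.01 in TAM, where the arrays had opposite signs. Its values on TAM1 and TAM7 were -1.17 and -1.81, a mean of -1.49 ± 0.45 (SD, n = 2; adjusted p = 0.582). Eef2, which moves the ribosome along, was at 0.52 and 0.92 in PEC and at -1.79 and -0.43 in TAM. It was at -1.08 and -0.70 on TAM1 and TAM7, and at 0.48, 0.81, 0.35 and -0.10 in untreated TAM. For Eef2, then, the arrays with LPS-treated TAM were all below 0, and 3 of the 4 untreated arrays above it. Eef1a2, the form of eEF1A known from muscle and neurons, had its PEC mean of -3.46 ± 4.74 (SD, n = 2) from PEC2 alone, at -6.82, with PEC1 at -0.11. It passed the adjusted threshold only where a fit gave PEC2 the whole weight, with an adjusted p of 0.00656 without PEC1. Eif5a2, a relative of eIF5A, was at -0.57 and -0.55 in PEC and ranged from -3.08 to 1.38 in untreated TAM. Spots for close relatives such as Eef1a1 and Eef1a2, Eif4a1 and Eif4a2, or Eif1a and Eif1ax can bind each other's cDNA, and how far they did was not tested.

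The enzymes that modify elongation factors, 3 in number, had no common sign with LPS. In untreated TAM their means were all below 0, at -0.75 for Eef2k, -0.25 for Eef1akmt2 and -0.20 for Eef1akmt1, but each had arrays on both sides of 0. Eef2k, the kinase that inhibits eEF2, was at 0.08 and -2.17 in PEC and at 2.32 and -0.20 in TAM after LPS. Eef1akmt1 and Eef1akmt2, which methylate lysines of eEF1A, had means within 1.06 of 0 in all comparisons. Eef1akmt2 was at 1.86 on TAM1 and 0.26 on TAM7, and at 0.08 and -1.68 on TAM-trial and TAM-16.

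Among the release factors, Etf1 (eRF1, which reads stop codons) had TAM values close to each other. It was at -1.66 on TAM-trial and -1.53 on TAM-16, a mean of -1.60 ± 0.09 (SD, n = 2), or 3.03-fold lower with LPS (adjusted p = 0.827). The PEC values, 0.26 and -0.31, lay on both sides of 0. In untreated TAM it was below 0 on every array, at -0.80, -0.17, -1.46 and -1.21 (mean -0.91 ± 0.56, adjusted p = 0.241). On TAM1 and TAM7, however, Etf1 was near 0, at 0.02 and -0.22. In the means, LPS-treated TAM thus lay nearer to LPS-treated PEC than untreated TAM to untreated PEC. The arrays other than TAM-trial and TAM-16 therefore did not give the drop with LPS in TAM. Gspt1 (eRF3, the GTPase partner of eRF1) was likewise below 0 on the untreated arrays, at -1.28, -0.21, -1.05 and -1.04, with a mean of -0.89 ± 0.47 (SD, n = 4; adjusted p = 0.245). After LPS Gspt1 was at 1.17 and 0.23 in PEC and at 0.14 and 0.22 in TAM, all above 0. Gspt2, a second gene for eRF3, had values from -1.62 to 1.0 in untreated TAM. The poly(A)-binding Pabpc1, which links the mRNA tail to eIF4G, was above 0 on all 4 arrays of LPS over untreated: 0.85 and 1.11 in PEC and 1.18 and 0.85 in TAM. Its response thus had the same sign in both cell types, with a difference of 0.03 (standard error 0.77). Pabpc2 was at 1.14 and 0.77 in TAM and at 1.09 and -0.86 in PEC.

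The symbol pattern took 6 cytosolic synthetases, with a median of 0.53 for LPS in PEC and -0.13 for LPS in TAM. Of those it missed, Eprs, the glutamyl-prolyl form, was at 1.76 and 0.85 in PEC and at -1.25 and 0 in TAM. Farsb, a phenylalanyl subunit, was at 3.5 and 0.85 in PEC and at -0.23 and 0.02 in TAM. With them the medians of the 8 were 0.84 and -0.28. Wars, the tryptophanyl-tRNA synthetase and a known interferon-induced gene, was at 2.0 and 0.87 in PEC and at 0.58 and 1.08 in TAM, above 0 on all 4 arrays. The difference between its responses was -0.61 with a standard error of 1.04 (adjusted p = 0.998). On TAM1 and TAM7 Wars was at -2.16 and -0.74, a mean of -1.45 ± 1.0 (SD, n = 2; adjusted p = 0.662). Tars was at 0.45 and 0.20 in PEC, and at -4.87 on TAM-trial against -0.34 on TAM-16. Both TAM values were below 0, but the mean of -2.60 ± 3.20 (SD, n = 2; adjusted p = 0.827) was set by TAM-trial. Untreated TAM had Tars below 0 on each array, at -1.30, -0.52, -0.12 and -0.28. On TAM1 and TAM7, which set LPS-treated TAM against LPS-treated PEC, Tars was above 0, at 0.97 and 0.57, a mean of 0.77 ± 0.28 (SD, n = 2; adjusted p = 0.973). Mars1, the methionyl form, was at 1.28 and 0.61 in PEC and at -1.99 and -0.25 in TAM. Iars was at 0.67 and 0.80 in PEC, and at -0.97 and 0.06 in TAM. Hars and Vars, the histidyl and valyl forms, were not above 0 on both PEC arrays. Hars was at 1.89, 1.08, -0.35 and 4.81 in untreated TAM (mean 1.86 ± 2.17, adjusted p = 0.266) and at 1.54 and 0.66 in TAM after LPS. Vars was at -0.17, 1.09, 1.61 and 1.87 in untreated TAM (mean 1.10 ± 0.91, adjusted p = 0.248) and between -0.92 and 0.24 on the other 6 arrays.

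The 7 mitochondrial synthetases, which charge tRNAs for the proteins made inside mitochondria, had a median of 0.07 for LPS in PEC, where the other 41 genes had 0.43, and of -0.14 for LPS in TAM, where they had -0.48. In untreated TAM their median was 0.32, against -0.27, and in LPS-treated TAM over LPS-treated PEC 0.14, against -0.25. The differences between these groups were not tested. Cars2 was above 0 on every array of untreated TAM, at 1.46, 1.21, 0.56 and 0.76, a mean of 1.0 ± 0.41 (SD, n = 4; adjusted p = 0.262), or 2-fold. Subtracting the median of features at the same place within blocks of 96 lowered that mean to 0.39. Mars2 was below 0 on the same arrays, but at -0.26, -2.93, -2.24 and -0.10, so that TAM-2R and TAM-3 set its mean of -1.38 ± 1.42 (adjusted p = 0.263). Iars2 was at -1.19 and -1.0 in TAM with LPS and at -0.20 and -0.44 in PEC. Vars2 was at -3.13 on TAM-trial and -0.08 on TAM-16, and below 0 on all untreated arrays, from -1.36 to -0.29. Ears2 was at 0.98 and 0.52 in PEC, and Lars2 spread from -1.0 to 4.28 in untreated TAM. Nars2 stayed within 0.66 of 0 on 9 arrays and was at 1.39 on TAM-2R.

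A separate list held 48 other genes of the pathway, such as mTOR signalling and stress-response genes, of which 23 were measured. None passed the adjusted threshold in any comparison by limma. At an unadjusted p under 0.05 it counted 2 above 0 for LPS in PEC, Asns and Farsb (8.7%, against 5.73% of all genes). Below 0 it counted 3 in untreated TAM, Atf4, Denr and Nck1 (13%, against 7.74%), and 3 for LPS in TAM, Atf4, Ddx3x and Mknk2 (13%, against 4.68%). There were 4 in LPS-treated TAM over LPS-treated PEC, Akt1, Asns, Atf4 and Larp1 (17.4%, against 6.92%), and 4 in the difference, Asns, Atf4, Denr and Farsb (17.4%, against 5.97%). These were named after their values were seen. Its medians had the same signs as those of the 48 translation genes: 0.37 for LPS in PEC, -0.38 for LPS in TAM, -0.30 in untreated TAM and -0.36 in LPS-treated TAM over LPS-treated PEC. Eif2ak2 (PKR, the eIF2 kinase that senses double-stranded RNA) was at 0.40 and -0.12 in PEC and at 0.28 and -0.97 in TAM after LPS, with both signs in each. Atf4 encodes the transcription factor translated when eIF2 is phosphorylated. It was at 1.93 and 0.65 in PEC and at -2.56 and -0.22 in TAM after LPS. Untreated TAM had it at -2.18, -1.62, -1.0 and -1.60, and TAM1 and TAM7 at -2.51 and -2.17, so that all 8 arrays with TAM RNA were below 0. These arrays hold unlike ratios, since TAM-trial and TAM-16 have TAM RNA in both channels and give an LPS response, not TAM over PEC. The untreated mean of Atf4 was -1.60 ± 0.48 (SD, n = 4; adjusted p = 0.159). Asns, an ATF4 target that makes asparagine, was at 1.49 and 1.19 in PEC after LPS and below 0 on the same 8 arrays, from -1.5 to -0.05.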

How the data were processed

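The authors deposited log ratios, taken as log2, for every feature of each array. The sources used here do not give the image analysis, background correction, normalization, log base or dyes. The base was read from the extreme value, 11.687: it means a ratio of 3297 in base 2, but in base e one of 119014, beyond the 65535 that a 16-bit channel can hold. Per the labels, arrays came from 3 prints: v1p1 (PEC1), v9p2 (TAM-trial, TAM7 and TAM-8) and v3p6 (the other 6). Channel signals were not used here, so dim spots could not be filtered. Precision is limited by how few arrays there are.

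Ratios were read as channel 2 over channel 1. Of the 9596 features, 7486 had 1 symbol in the platform table, 483 several and 1627 none; all 48 genes described here were matched to the reference table (GRCm38.p6) by Entrez identifier. Features of a gene were averaged, which gave 8905 genes and unnamed features. limma 3.58.1 (lmFit, eBayes) in R 4.3.3 fitted 1 mean per direct comparison on all 10 arrays, with 6 residual and 3.841 prior degrees of freedom; the difference between LPS responses was a contrast. P-values were two-sided, adjusted by Benjamini-Hochberg over 8905 tests, with a threshold of 0.05. SDs are over arrays. The fit was tested on simulated data. Named genes were all 48 members, each described by role, and, by rule, Eif2ak2 from the list of other pathway genes; the other genes of that list were named after their values were seen. The members, lists and alternatives were chosen with earlier results of these data known. Beside leaving out each array, 10 other settings were tried: the coding of exchanged arrays, 2 scalings, place, single features, 2 dye terms, a loop fit, print v3p6 only and each comparison's own arrays only.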

Additional observations from a re-analysis of the deposited data

How the results depend on the processing

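No paired analysis was possible because the replicate numbers come partly from the order of deposition and pair nothing across comparisons. Leaving out each array in turn, the median of the 48 genes ranged from 0.22 to 0.42 for LPS in PEC, from -0.62 to -0.16 for LPS in TAM, from -0.37 to -0.02 for LPS-treated TAM over LPS-treated PEC, from -0.36 to -0.27 for untreated TAM over PEC and from -0.87 to -0.57 for the difference between responses. The number past the adjusted threshold ranged from 0 to 1 for LPS in PEC and for the difference, and was 0 in the other comparisons. The 1 was Eef1a2, without PEC1 (limma adjusted p of 0.00656 and 0.0165), where PEC2 alone is left and 85 (0.955%) and 47 (0.528%) of the 8905 genes and features passed. With a dye term for each print it was also 1 in both (adjusted p of 0.0153 and 0.0386), beside 56 (0.629%) and 35 (0.393%) of all, and the median for LPS in PEC was 0.02. With 1 dye term that median was 0.08, and in the loop fit -0.12, on the other side of 0. The loop fit gave -0.34 for the difference between responses, -0.06 for untreated TAM over PEC and -0.44 for LPS-treated TAM over LPS-treated PEC. That last median was 0.14, again on the other side of 0, with the exchanged arrays left unturned, and -0.37 on print v3p6 alone. The cause of these shifts was not tested. Centring each array moved the median of all genes for LPS in TAM from -0.13 to -0.02 and that of the 48 genes from -0.45 to -0.34. Over the alternatives that keep all arrays or a print, the genes below 0 at an unadjusted p under 0.05 numbered from 0 (print v3p6 alone, where 0.707% of all genes did so) to 7 (single features, 4.72%) for LPS in TAM. They numbered from 0 (exchanged arrays unturned, 0.202%) to 15 (loop fit, 11.2%) for LPS-treated TAM over LPS-treated PEC, and from 0 (print v3p6, 0.865%) to 14 (single features, 5.7%) for the difference. Those above 0 numbered from 0 (print v3p6, 1.11%) to 9 (arrays centred and scaled, 8.74%) for LPS in PEC and from 0 (print v3p6, 2.19%) to 4 (centred and scaled, 5.31%) in untreated TAM. With a dye term for each print, too, 0 genes were below 0 at that p in LPS-treated TAM over LPS-treated PEC, where 3.22% of all genes were. The signs of the means were followed over all alternatives except single features. Of the 48 genes, 22 kept their sign in untreated TAM, 22 for LPS in PEC, 21 for LPS in TAM, 9 for LPS-treated TAM over LPS-treated PEC and 26 for the difference. With 2 arrays in 3 of the comparisons, and spot signals not used here, small differences could not be measured.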
